A study of Mus musculus with 6 samples.

Results

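The ERK kinases pass growth factor signals from RAS, RAF and MEK to the nucleus, and the transcripts they induce include several of their own inhibitors. Described here are 10 such genes, chosen by name from the 54532 genes of the deposited table. They are 5 dual-specificity phosphatase genes (Dusp1, Dusp4, Dusp5, Dusp6 and Dusp10), 3 Sprouty genes (Spry1, Spry2 and Spry4) and 2 SPRED genes (Spred1 and Spred2). The dual-specificity phosphatases (MAP kinase phosphatases) take phosphate off both the threonine and the tyrosine of an activated MAP kinase. Sprouty proteins act further upstream, between the receptor and RAF, and SPRED proteins bring the RAS inhibitor neurofibromin to the membrane. Because many of these transcripts are induced by the pathway they restrain, they are widely read as a record of recent ERK activity. DUSP10 is known to act mainly on the kinases JNK and p38, so its place among ERK inhibitors rests on family membership.

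The RNA-seq data cover 6 mouse libraries, whose labels name MIN6 cells, a beta cell line that came from a mouse insulinoma, 3 with the genotype label control and 3 labelled as a knockdown of PP2Ac. PP2Ac carries the catalytic activity of the PP2A holoenzyme, which removes phosphate from serine and threonine and acts on several proteins of the ERK cascade. The control titles carry the code shc and the knockdown titles the code sh2. The labels explain neither code and name no treatment, and each group carries 1 code, so that several constructs per group are not on record. The comparison asks which transcripts differ between knockdown and control cells; levels are in FPKM, reads scaled for gene length and library depth. ERK phosphorylation was not measured in these libraries.

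The libraries held 14614737 to 16030939 recovered reads each. The genotype label names PP2Ac and not which of its genes was targeted. For Ppp2ca, a gene of this catalytic subunit, control libraries 1 to 3 stood at 42.5, 34.6 and 35.6 FPKM, and knockdown libraries 1 to 3 at 10.1, 11.4 and 10.9 FPKM (exact two-sided permutation p = 0.1, the smallest that 3 against 3 libraries allow). Ppp2cb, the gene of the other catalytic isoform, was at 101 ± 10.6 and 86.9 ± 3.45 FPKM (SD, n = 3; limma adjusted p = 0.0660, under the threshold in 5 of 17 alternatives). The beta cell label was not borne out by its markers. Of 17 beta cell marker genes 15 had a mean FPKM under 1. At 0 in every library were 10 of them, namely Ins1, Ins2, Nkx6-1, Nkx2-2, Neurod1, Isl1, Slc2a2, Pcsk1, Pcsk2 and Ucn3. The 2 tested, Pdx1 (1.68 ± 0.499 to 3.96 ± 0.309 FPKM) and Mafa (1.78 ± 0.435 to 4.86 ± 0.854 FPKM; SD, n = 3), had reads in every library and were called higher in knockdown. All 17 together summed to 3.01 to 4.70 FPKM in control and 8.19 to 9.85 FPKM in knockdown. Of 15 stromal, endothelial and immune markers 9 had a mean under 1 and 5 were at 0 throughout (among them Lum, Cdh5, Adgre1 and Cd3e). Their summed level was 26.0 to 31.2 FPKM in control and 49.0 to 62.8 FPKM in knockdown. Of the 6 tested, Pdgfra, Pdgfrb, Col3a1, Eng and Lyz2 were called higher and Cd68 lower. Among all genes tested 62.4% were called. Pdgfra and Col3a1 passed the filter only through the knockdown libraries, so their direction was largely set by that filter. Col3a1 went from a mean of 0.834 to 31.7 FPKM, Lyz2 from 1.74 to 3.62 FPKM and Cd68 from 16.5 to 2.27 FPKM. Mitochondrially encoded genes took 2.74% to 3.50% of reads in control and 1.26% to 1.38% in knockdown. The part of these shifts in the results below was not tested, and fewer cells of a type and less RNA per cell cannot be told apart in such bulk samples. No source says that the replicates were separate cultures, so p-values measure the spread between these samples, which may be technical.

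The start regions of the members differ in the short motifs they hold. Those of Dusp1 and Dusp5 are shown because both genes changed, in opposite directions, and their windows held matches. That of Spry2, which also changed, is shown as a region without a match. Dusp10 also changed and had no match, and its window is not shown. A link between motif and direction was not tested. RefSeq windows (GRCm38.p6) of the 250 bases before the annotated start were found for 8 of the 10 members, all but Dusp4 and Spry4. Both of these also changed. The 6 motifs searched were the full cyclic AMP response element TGACGTCA, its core TGACG, the AP-1 element TGANTCA and the ETS core CCGGAA, each on both strands, the SRF-binding CArG box, and TATAAA on the gene's strand only. The full element holds the core on both strands, so these overlap. The windows below end where the first exon annotated in GENCODE M21 begins, and capitals mark the matches. They are Dusp1 at chr17:26508520-26508722 (minus strand), Dusp5 at chr19:53528895-53529108 (plus strand) and Spry2 at chr14:105896820-105897069 (minus strand).
Dusp1: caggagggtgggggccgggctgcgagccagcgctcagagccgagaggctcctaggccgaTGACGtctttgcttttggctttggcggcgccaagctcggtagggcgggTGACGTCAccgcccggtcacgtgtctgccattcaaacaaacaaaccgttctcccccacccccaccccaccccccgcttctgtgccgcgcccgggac
Dusp5: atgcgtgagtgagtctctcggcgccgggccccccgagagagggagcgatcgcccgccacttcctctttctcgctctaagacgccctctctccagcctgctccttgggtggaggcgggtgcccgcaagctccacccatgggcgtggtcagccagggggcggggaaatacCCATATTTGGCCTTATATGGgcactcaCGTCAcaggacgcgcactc
Spry2: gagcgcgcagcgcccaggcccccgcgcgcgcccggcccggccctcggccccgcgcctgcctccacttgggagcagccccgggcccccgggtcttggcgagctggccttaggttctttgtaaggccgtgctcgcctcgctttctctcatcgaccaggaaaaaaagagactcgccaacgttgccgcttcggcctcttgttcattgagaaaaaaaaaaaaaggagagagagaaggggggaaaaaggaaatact

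Dusp1 carried the full cyclic AMP element at position -143 from its RefSeq start and a further core at -191. Dusp5 carried 2 adjoining CArG boxes, CCATATTTGG at -82 and CCTTATATGG at -72, and a core element at -55. Among all 32851 windows in the RefSeq table, 1.55% held the full element, 17.8% the core, 1.47% a CArG box, 6.75% the AP-1 element and 7.59% TATAAA. The ETS core was in 3952 of them. The window of Spred2 had 1 core match, at -51, which lies past the annotated start of its first exon. Those of the other 5 members with a window, Dusp6, Dusp10, Spry1, Spry2 and Spred1, had no match to any of the 6. These are matches of letters and say nothing of binding in these cells.

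Transcripts of the feedback inhibitors moved in both directions, within families as well as between them. Spry4, Dusp4 and Dusp5 fell in the knockdown libraries, Spry2, Dusp10 and Dusp1 rose, and Dusp6, Spred1 and Spred2 did not pass the threshold of a limma adjusted p of 0.05. The 6 changed means ran from 65.8% of the control mean for Spry4 to 130% for Dusp10. Of the 10 members 9 passed the filter of a mean FPKM of at least 1, and Spry1 did not. The 6 called of 9 tested (66.7%) stand beside 7267 of 11652 genes called in the whole table (62.4%), so the share of changed members was near the background. Higher were 3 members (33.3% of all genes) and lower were 3 (29.1% of all genes). The 6 called members were also those whose groups did not overlap, a state reached by 68.1% of all genes. The median log2 difference of the 9 tested members, knockdown minus control, was -0.04 against 0.03 for all genes tested, and their median absolute log2 difference was 0.33 against 0.37.

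**Figure D1:**
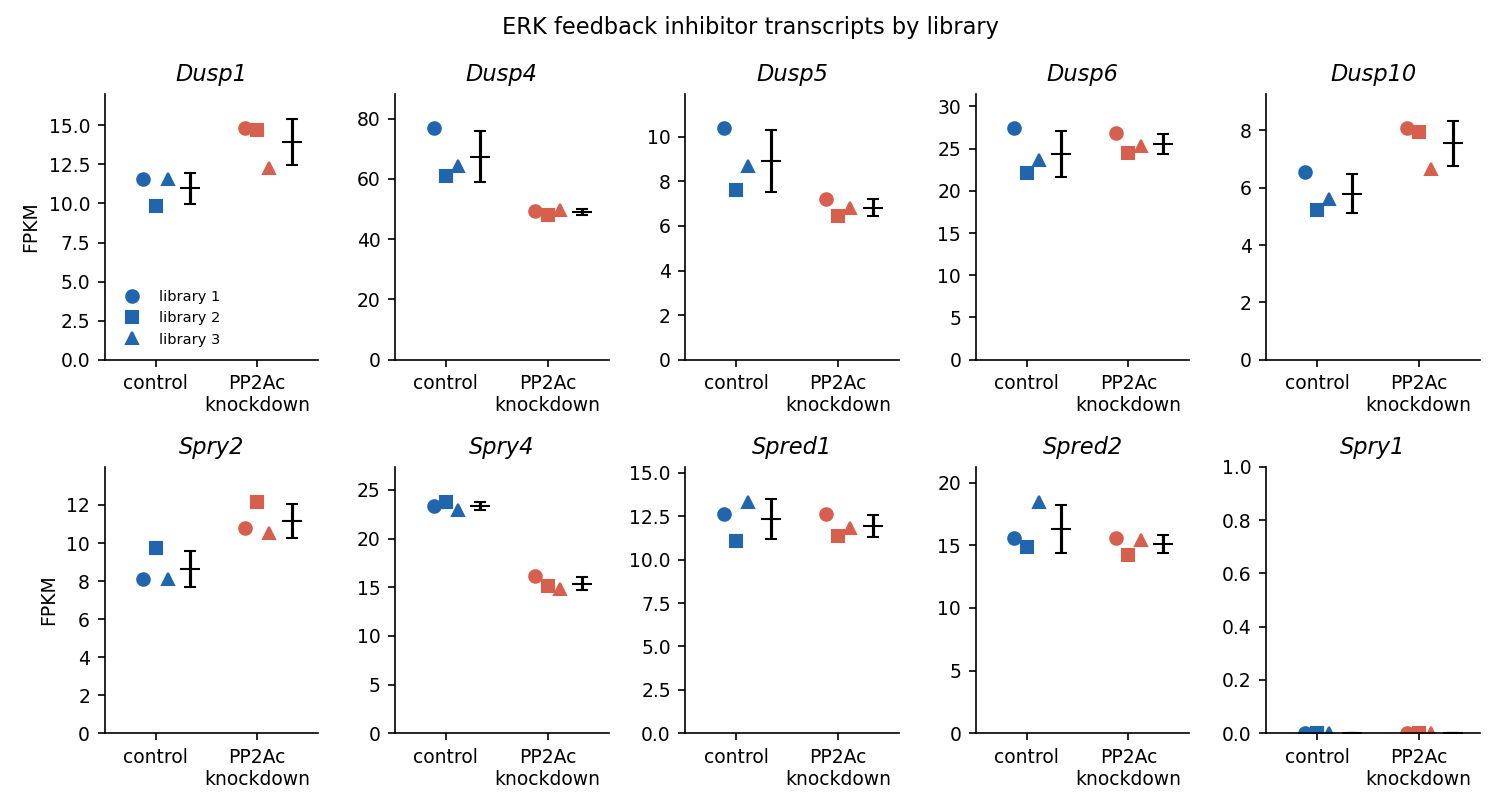
FPKM of the 10 members in each library (y axis, from 0), with control in blue and PP2Ac knockdown in red; circles, squares and triangles are libraries 1, 2 and 3, and the black mark is the mean with its SD (n = 3). The groups are apart for Dusp1, Dusp4, Dusp5, Dusp10, Spry2 and Spry4, they overlap for Dusp6, Spred1 and Spred2, and Spry1 is at 0.

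Of the genes of nuclear phosphatases, Dusp4 and Dusp5 fell and Dusp1 rose. Dusp4 (ENSMUSG00000031530, chromosome 8, 34807297 to 34819894, plus strand, GRCm38), which encodes MKP-2, a nuclear phosphatase of ERK, JNK and p38, was the most abundant member. It had 76.9, 60.9 and 64.5 FPKM in control libraries 1 to 3 and 49.4, 47.9 and 49.7 FPKM in knockdown libraries 1 to 3. Control library 1 was the highest, and every knockdown library lay below every control library. The means were 67.4 ± 8.37 and 49.0 ± 0.960 FPKM (SD, n = 3), a log2 difference of -0.45 (SE 0.0914, limma adjusted p = 0.00307). Behind these values stood 2011 to 3369 reads per library.

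Dusp5 (ENSMUSG00000034765, chromosome 19, 53529109 to 53542431, plus strand), which encodes a nuclear phosphatase selective for ERK, had 10.4, 7.64 and 8.69 FPKM in control and 7.22, 6.44 and 6.82 FPKM in knockdown. The gap between the groups was narrow, and control library 1 again stood highest. Its mean fell from 8.91 ± 1.39 to 6.83 ± 0.387 FPKM (SD, n = 3), a log2 difference of -0.33 (SE 0.106, limma adjusted p = 0.0246). The call was lost without control library 1 (adjusted p = 0.0695), without knockdown library 2 (0.0758) and without knockdown library 3 (0.0577), and over its 17 alternatives the limma adjusted p ran from 0.00789 to 0.0758.

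Dusp1 (ENSMUSG00000024190, chromosome 17, 26505590 to 26508519, minus strand), which encodes MKP-1, an immediate early phosphatase of p38, JNK and ERK, rose. It had 11.6, 9.85 and 11.5 FPKM in control and 14.8, 14.7 and 12.3 FPKM in knockdown. Knockdown library 3 lay just above the highest control library. The mean rose from 10.98 ± 0.985 to 13.9 ± 1.45 FPKM (SD, n = 3), a log2 difference of 0.32 (SE 0.0969, limma adjusted p = 0.0205). Without control library 2 the limma adjusted p was 0.0679, without knockdown library 1 it was 0.0730 and without knockdown library 2 it was 0.0682, in a range of 0.00806 to 0.0730 over 17 alternatives.

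Dusp10 (ENSMUSG00000039384, chromosome 1, 184013302 to 184075636, plus strand), which encodes MKP-5, was the least abundant member with reads in control. Its level was 6.56, 5.23 and 5.61 FPKM in control and 8.08, 7.94 and 6.65 FPKM in knockdown. As for Dusp1, knockdown library 3 was the lowest of its group and lay just above control library 1. The mean rose from 5.80 ± 0.681 to 7.56 ± 0.791 FPKM (SD, n = 3), a log2 difference of 0.33 (SE 0.102, limma adjusted p = 0.0209). This call was lost without control library 2 (0.0675), control library 3 (0.0544), knockdown library 1 (0.0741) or knockdown library 2 (0.0673), all limma adjusted p, in a range of 0.00993 to 0.0741 over 17 alternatives. The gene 1700056E22Rik overlaps Dusp10 on the opposite strand with at most 39 reads in a library, against 247 to 380 for Dusp10. The strand setting of the counting is not given, so reads of this pair cannot be told apart.

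Dusp6 (ENSMUSG00000019960, chromosome 10, 99263231 to 99267489, plus strand), which encodes MKP-3, the cytoplasmic phosphatase selective for ERK and the member most often read as an ERK output, did not pass. Its values were 27.4, 22.1 and 23.7 FPKM in control and 26.8, 24.5 and 25.4 FPKM in knockdown, so the 3 knockdown libraries lay inside the control range. The log2 difference was 0.07 (limma adjusted p = 0.520), with a 95% interval of -0.13 to 0.27, or 0.911 to 1.21 times the control level.

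Of the Sprouty genes, Spry4 fell, Spry2 rose and Spry1 had no read. Spry4 (ENSMUSG00000024427, chromosome 18, minus strand), which encodes an inhibitor acting at the level of RAS and RAF, showed the largest difference among the members. It had 23.3, 23.8 and 23.0 FPKM in control and 16.2, 15.1 and 14.8 FPKM in knockdown. Both groups were tight and far apart. The mean fell from 23.4 ± 0.418 to 15.4 ± 0.699 FPKM (SD, n = 3), a log2 difference of -0.57 (SE 0.0644, limma adjusted p = 0.000134). Of all tested genes 69.3% had a smaller absolute difference.

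Spry2 (ENSMUSG00000022114, chromosome 14, 105891947 to 105896819, minus strand), whose product binds the ubiquitin ligase CBL and the adaptor GRB2, rose. It had 8.09, 9.73 and 8.08 FPKM in control and 10.8, 12.2 and 10.5 FPKM in knockdown. Library 2 was the highest of each group, and the lowest knockdown library stood above the highest control library. The means were 8.63 ± 0.949 and 11.2 ± 0.881 FPKM (SD, n = 3), a log2 difference of 0.34 (SE 0.0924, limma adjusted p = 0.0122). Spry1 (ENSMUSG00000037211, chromosome 3, 37639947 to 37644598, plus strand) was at 0 in all 6 libraries, where 3 reads would have given at most 0.0691 FPKM.

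Neither SPRED gene passed the threshold. Spred1 (ENSMUSG00000027351, chromosome 2, 117121374 to 117182279, plus strand) had 12.7, 11.1 and 13.3 FPKM in control and 12.6, 11.4 and 11.8 FPKM in knockdown, a log2 difference of -0.04 with a 95% interval of -0.23 to 0.15 (limma adjusted p = 0.691). The groups overlapped, with the knockdown values inside the control range. Spred2 (ENSMUSG00000045671, chromosome 11, 19924375 to 20024026, plus strand) had 15.6, 14.8 and 18.5 FPKM in control and 15.6, 14.2 and 15.4 FPKM in knockdown. Here 1 control library, the third, stood above the other 5, and the log2 difference was -0.10 with a 95% interval of -0.31 to 0.11 (limma adjusted p = 0.373). Nf1, the gene of the neurofibromin that SPRED proteins recruit, fell from 6.96 ± 0.298 to 3.80 ± 0.433 FPKM (SD, n = 3), a log2 difference of -0.73 (limma adjusted p = 0.000196).

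**Figure D2:**
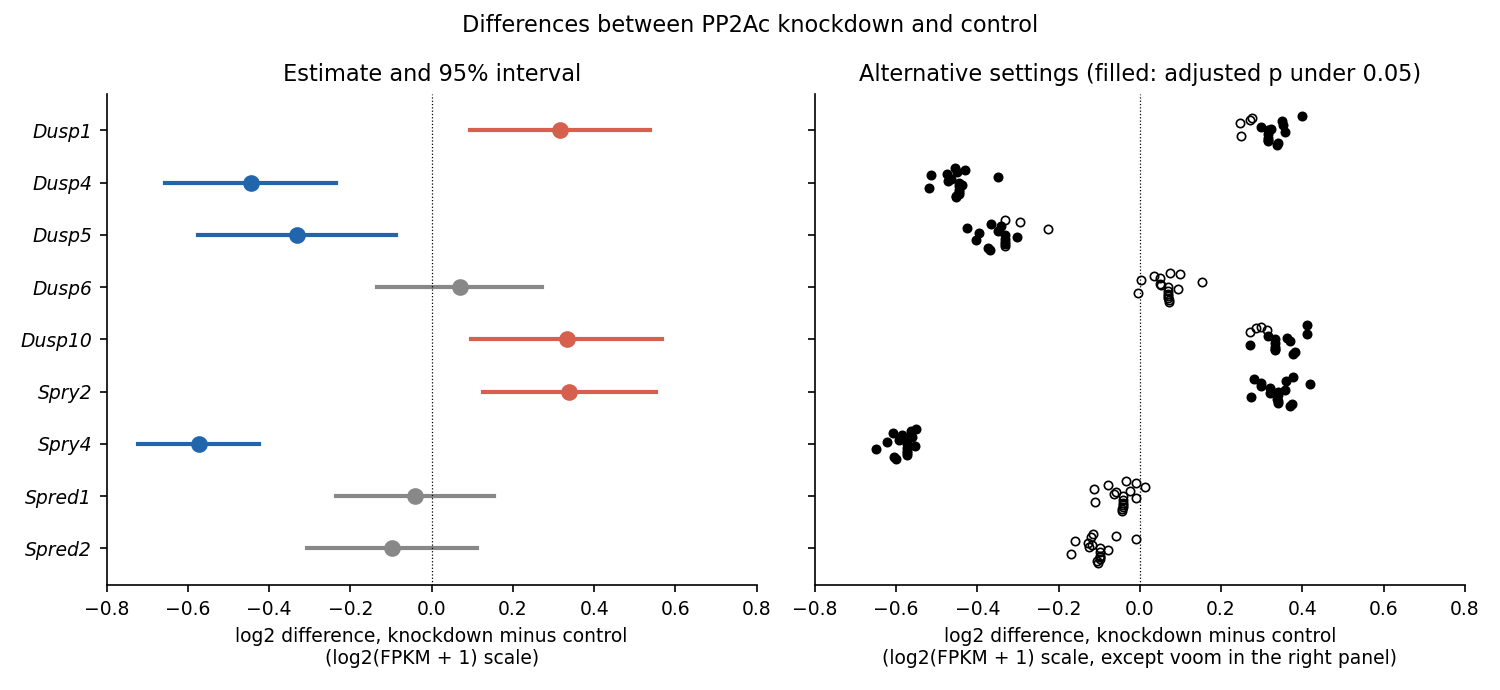
Log2 difference of each tested member, knockdown minus control (x axis). The scale is log2(FPKM + 1), except for the pseudocount and voom alternatives at right. At left is the estimate with its 95% interval, red for higher, blue for lower and grey for not past the threshold; at right are the 17 alternative settings, filled where the adjusted p was under 0.05. Spry4, Dusp4 and Spry2 are filled throughout, while Dusp1, Dusp5 and Dusp10 each have open points.

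Of the 6 called members, Spry4, Dusp4 and Spry2 kept their call under all 17 alternatives, with log2 differences of -0.65 to -0.55, -0.52 to -0.35 and 0.27 to 0.42. Median-of-ratios scaling, counted among these alternatives, could change little, since the deposited values already carry it. The other 3, Dusp1, Dusp5 and Dusp10, each lost it when single libraries were left out. With knockdown library 2 left out, 3 members remained called.

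The order of abundance, compared per gene length in FPKM, was the same in both groups down to Spred2 and differed below it. In control the order was Dusp4, Dusp6, Spry4, Spred2, Spred1, Dusp1, Dusp5, Spry2, Dusp10. The library ranges of Dusp6 and Spry4 overlapped there, as did those of Spred1 and Dusp1, Dusp1 and Dusp5, and Dusp5 and Spry2. In knockdown the order was Dusp4, Dusp6, Spry4, Spred2, Dusp1, Spred1, Spry2, Dusp10, Dusp5. Spry4 then no longer overlapped Dusp6 above it but did overlap Spred2 below it, and Dusp5 was the lowest member with reads, overlapping Dusp10. Spred2 and Dusp1, Dusp1 and Spred1, and Spred1 and Spry2 also overlapped, while Spry2 and Dusp10 did not.

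Shares within a family do not depend on how a library as a whole is scaled. Spry2 made up 25.8%, 29.0% and 26.0% of the summed Sprouty FPKM in control and 40.1%, 44.6% and 41.5% in knockdown. The ratio of Spry2 to Spry4 was 0.369 ± 0.0344 in control and 0.728 ± 0.0697 in knockdown (SD, n = 3). Summed Sprouty FPKM was 32.0 ± 1.34 in control and 26.5 ± 1.04 in knockdown. Among the 5 phosphatases, the share of Dusp4 was 57.9%, 57.6% and 56.6% in control and 46.4%, 47.2% and 49.3% in knockdown. The ratio of Dusp5 to Dusp6, the nuclear and the cytoplasmic ERK-selective enzyme, was 0.379, 0.345 and 0.367 in control and 0.269, 0.263 and 0.269 in knockdown. That of Dusp1 to Dusp4 was 0.164 ± 0.0144 in control and 0.285 ± 0.0332 in knockdown (SD, n = 3). The summed FPKM of the 5 phosphatases overlapped between the groups, at 118 ± 13.9 and 103 ± 2.99, as did that of both SPRED genes, at 28.6 ± 2.99 and 27.0 ± 1.32. In 18 such sums, shares and ratios the smallest exact two-sided permutation p was 0.1, the least this design allows, and 0.129 after Benjamini-Hochberg adjustment, so none could pass 0.05.

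**Figure D3:**
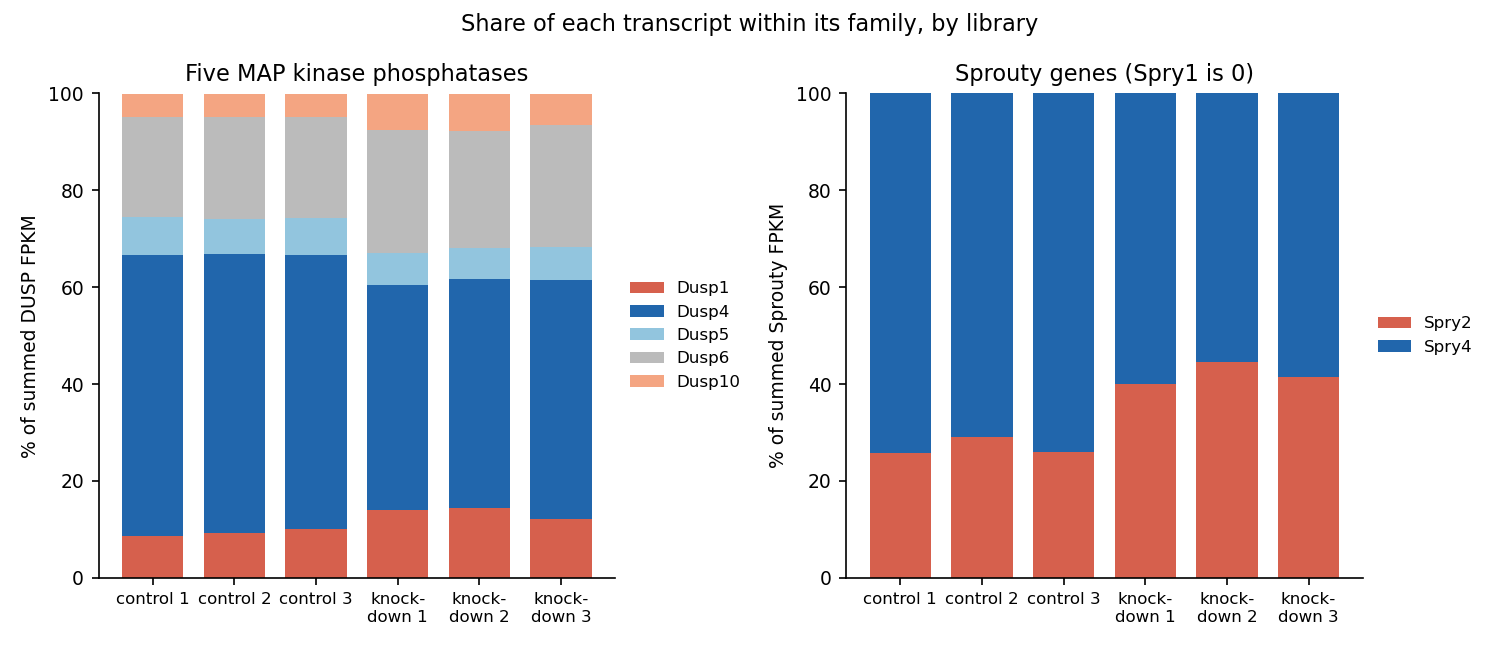
Share of each transcript in the summed FPKM of its family (y axis, percent) in each of the 6 libraries, for the 5 phosphatase genes (left) and the Sprouty genes (right). Spry2 takes 25.8% to 29.0% of the Sprouty sum in control libraries and 40.1% to 44.6% in knockdown libraries, and Dusp4 falls from at least 56.6% to at most 49.3% of the phosphatase sum.

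Relatives outside the 10 members also changed in both directions. Of 7 further phosphatase, Sprouty and SPRED genes 6 were tested, of which 3 rose, 1 fell and 2 stayed short of the threshold, with a median log2 difference of 0.36. The called share was 66.7%, near the 62.4% of all genes. Dusp9, a cytoplasmic ERK-selective phosphatase gene, rose from 8.26 ± 0.330 to 22.3 ± 0.675 FPKM (log2 difference 1.33), and Dusp7, its close relative, rose from 13.1 ± 0.477 to 21.2 ± 0.779 FPKM (0.66). Dusp2, a nuclear phosphatase gene, rose from 1.35 ± 0.262 to 3.59 ± 0.340 FPKM (0.97). Dusp8, whose product prefers JNK and p38, fell from 8.91 ± 0.118 to 5.86 ± 0.428 FPKM (-0.53; SD, n = 3 throughout). Of the 3 cytoplasmic ERK-selective phosphatase genes, Dusp7 and Dusp9 thus rose while Dusp6 did not pass.

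Among 15 tested of 16 other inhibitors of receptors, RAS and RAF, 5 rose, 4 fell and 6 stayed short of the threshold, with a median log2 difference of 0.04. The called share was 60.0%, near the 62.4% of all genes. Rasa1, a RAS GTPase-activating protein gene, fell from 10.6 ± 1.148 to 4.70 ± 1.08 FPKM (log2 difference -1.04). Dok1, an adaptor gene that recruits RASA1, rose from 20.3 ± 0.628 to 35.9 ± 2.46 FPKM (0.79), and Ptpn1, a tyrosine phosphatase gene, rose from 13.3 ± 0.665 to 21.5 ± 1.48 FPKM (0.65). Il17rd, the gene of the feedback inhibitor SEF and 1 of the 5, was at 0.765 ± 0.1004 and 1.31 ± 0.142 FPKM (SD, n = 3; limma adjusted p = 0.0251). It passed the filter on low values only through the knockdown libraries, and fell under it without knockdown library 1 or 3; with no filter its limma adjusted p was 0.0425. That call was lost without control library 1 (0.0629) or control library 3 (0.0685), in a range of 0.000422 to 0.0685 over its alternatives.

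The cascade that the members restrain was divided. Of 28 symbols 27 were in the table and 26 were tested, with 10 rising, 10 falling and 6 short of the threshold and a median log2 difference of 0.06. The called share was 76.9%, beside 62.4% of all genes (33.3% higher and 29.1% lower). Map2k2 (MEK2) rose from 29.8 ± 2.17 to 38.7 ± 4.83 FPKM, a difference of 0.36. Mapk3 (ERK1) rose from 112 ± 4.33 to 138 ± 14.1 FPKM (limma adjusted p = 0.0176). Leaving out control library 1 (0.0554), knockdown library 1 (0.0633) or knockdown library 2 (0.0621) ended that call, in a range of 0.00374 to 0.0633 over its alternatives. Map2k1 (MEK1), at 34.01 ± 0.275 and 36.8 ± 1.55 FPKM, did not pass (limma adjusted p = 0.163). The largest changes in this list were in Mknk1, an ERK-activated kinase gene (22.2 ± 0.744 to 7.74 ± 0.370 FPKM), Rps6ka1, which encodes RSK1 (1.25 ± 0.206 to 4.61 ± 0.265 FPKM), Sos2, a RAS exchange factor gene (6.40 ± 0.650 to 2.30 ± 0.385 FPKM), and Lamtor3, the MEK1 scaffold gene (21.7 ± 2.73 to 10.5 ± 1.14 FPKM; SD, n = 3).

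Other transcripts known to be induced by ERK also included changes in both directions. Of 22 genes 18 were tested, with 3 rising, 6 falling and 9 short of the threshold and a median log2 difference of -0.08. The called share was 50.0%, beside 62.4% of all genes. With mitochondrial genes, rRNA and Gm23935 removed, 1 was higher and 7 lower. The EGF receptor ligand genes Areg and Ereg fell from 14.8 ± 3.94 to 3.08 ± 0.595 FPKM and from 28.9 ± 5.70 to 11.3 ± 0.963 FPKM. Epha2, an ephrin receptor gene, fell from 179 ± 27.0 to 72.6 ± 3.25 FPKM, and Ier3, an immediate early gene, from 152 ± 14.4 to 86.4 ± 4.41 FPKM. Etv4, an ETS factor gene, rose from 30.7 ± 2.68 to 44.9 ± 2.77 FPKM (log2 difference 0.54). Egr1, at 31.4 ± 3.75 and 32.8 ± 3.56 FPKM, Etv5, at 22.2 ± 1.01 and 24.6 ± 1.52 FPKM, and Ccnd1, at 165 ± 12.1 and 165 ± 4.43 FPKM, did not pass (limma adjusted p = 0.621, 0.120 and 1.000; SD, n = 3). Fos, at 0.753 ± 0.294 and 0.938 ± 0.397 FPKM, was under the filter.

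The JNK and p38 cascade, on which DUSP1, DUSP4 and DUSP10 also act, had 16 of 19 genes tested, with 7 rising, 4 falling and 5 short of the threshold and a median log2 difference of 0.12. The called share was 68.75%, beside 62.4% of all genes. Map2k3, the gene of a dedicated p38 activator, rose from 35.8 ± 1.91 to 57.8 ± 2.99 FPKM. Map2k6, that of the other, was at 0.361 ± 0.138 and 2.39 ± 0.663 FPKM and passed the filter on low values only through the knockdown libraries; with no filter its limma adjusted p was 0.00298. Mapkapk2, the gene of a p38 substrate kinase, rose from 70.4 ± 2.14 to 101 ± 7.88 FPKM, and Atf2, a JNK and p38 target transcription factor gene, fell from 8.15 ± 0.472 to 5.74 ± 0.616 FPKM (SD, n = 3). These lists were drawn up with earlier results of the data known, and each count is to be read against the 62.4% of all genes called.

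**Figure D4:**
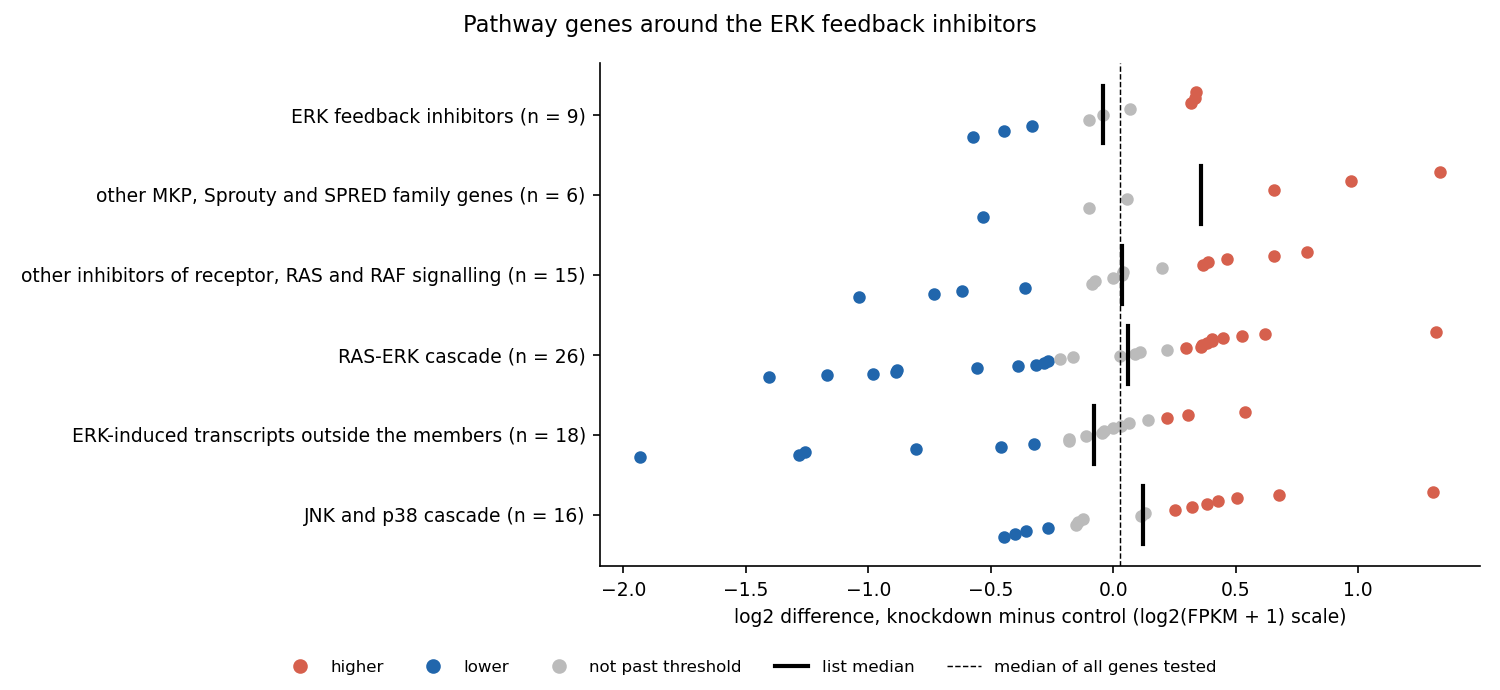
Log2 difference, knockdown minus control (x axis), of every tested gene in the members' list and 5 pathway lists (rows, with the number tested); red is higher, blue lower and grey not past the threshold. The black bars are list medians, between -0.08 and 0.36, and the dashed line is the median of all genes tested, 0.03; each list holds genes on both sides.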

How the data were processed

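Total RNA (Trizol) went into Illumina TruSeq RNA libraries, per the labels' protocols. The authors deposited 1 table of FPKM for 54532 genes; per the submitters' processing notes the builds are GRCm38 and mm10, and aligner, counter and strand use were not given in the sources used here. FPKM times gene length was a whole multiple of 1 step for 100% of values above 0 (tolerance 0.01), which gave the reads per gene. The depth implied by the steps equals the median-of-ratios size factors of these reads in all 6 libraries, so the values are scaled by such factors, not by totals, from which they differ by -2.23% to 1.69%. Genes were tested with limma 3.58.1 (R 4.3.3; eBayes with a trend) on log2(FPKM + 1), keeping the 11652 whose mean FPKM reached 1, with Benjamini-Hochberg adjustment over all of them and a threshold of 0.05. It was tested on simulated data first, where it missed many of the smallest changes tried and its share of false calls was somewhat above the threshold. All tested members but Spry4 changed by less than the smallest fold tried, so recovery at their size was not tested. Far fewer genes were changed there than were called here, so its share of false calls need not hold for these data. Fold changes on the log2(FPKM + 1) scale understate the change of low genes. Groups came from the genotype labels; the fit had no block, and Ppp2ca and within-family shares were tested by exact permutation. Members and gene lists were chosen with earlier results of these data known. Named are all members, Ppp2ca and Ppp2cb, per list the 4 called genes with the largest difference, a fixed set of further genes (Mapk3, Map2k1, Map2k2, Fos, Egr1, Etv4, Etv5, Nf1, Il17rd and Ccnd1), and the 3 coding genes most like Spry4 across libraries. Cell type markers are named as a label check; Col3a1, Lyz2 and Cd68 were picked after their values were seen. Some genes of the fixed lists are not reported here. Python 3.11.15 with pandas 2.3.3 and scipy 1.17.1 prepared the tables. Alternatives changed the pseudocount (0.1, 0.01), filter, scaling or variance model, added array weights or a replicate block, used voom, or left out each library in turn; scaling to total reads was added after seeing the data.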

Additional observations from a re-analysis of the deposited data

How the results depend on the processing

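Over 17 alternative settings Ppp2ca kept its direction and call, with log2 differences of -1.76 to -1.61 when single libraries were left out. With no filter on low values, which put 26998 genes into the adjustment, 3 members were called (Spry4, Dusp4 and Spry2), 1 of them higher, and Dusp1, Dusp5 and Dusp10 had limma adjusted p of 0.0561, 0.0712 and 0.0616. Leaving out 1 library at a time gave 3 to 5 members called, 1 to 3 of them higher. With mitochondrial genes, rRNA and Gm23935 removed and equal sums, Dusp1 had a limma adjusted p of 0.0532, 1 gene of the ERK-induced list was higher in place of 3, and Dusp6 (-0.0031), Egr1 (-0.0082) and Ccnd1 (-0.0745) changed sign without a call. This setting moved the median of all genes from 0.03 to -0.04. A mean FPKM of at least 5 left 7728 genes, with 2208 lower in place of 3388, and 2 of the other inhibitors lower in place of 4, since fewer genes were tested. Differences near 0 also changed sign elsewhere: Spred1 without control library 3 (0.0125), Egr1 without knockdown library 3 (-0.0117), and Ccnd1 with voom (-0.0195), with total-read scaling (-0.0192), without control library 2 (-0.0578) and without knockdown library 1 (-0.0217); the cause was not tested. Leaving out single libraries gave -0.1125 to 0.0125 for Spred1, -0.0117 to 0.1575 for Egr1 and -0.0578 to 0.0465 for Ccnd1. Median-of-ratios scaling changed no member's call, since the deposited values already carry it. Same-numbered libraries of the 2 groups had correlations of deviations of -0.0107, 0.159 and 0.0518, and differently numbered ones of -0.177 to 0.133. So few values cannot tell whether the numbers pair the libraries. With the replicate number as a block 7363 genes and 6 members were called, and no member's call changed. Of 29 other genes examined singly, 474 of 486 alternative values kept direction and call. The members rest on 244 to 3369 reads per library, and Spry1 was not detectable at this depth.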

Other observations

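Replicate spread of the members is given here as a description. In control the coefficient of variation of Dusp4 was 12.4%, above that of 86.8% of the 917 genes within 1.5-fold of its level, and in knockdown it was 1.96%, above 4.80% of them. Dusp5 had 15.6% in control, above 88.5% of genes of like level, and 5.68% in knockdown, above 29.7% of them. Spry4 had 1.79% in control, above 4.27% of 2316 genes of like level, and 4.55% in knockdown, above 26.0% of them. The other tested members were Dusp1, Dusp6, Dusp10, Spry2, Spred1 and Spred2. Their control spread was above that of 63.6% (Dusp1) to 82.6% (Spred2) of genes of like level. Their knockdown spread was above that of 27.2% (Dusp6) to 76.2% (Dusp1). With 3 libraries a group these are values with no test.

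The genes most like Spry4 over the 6 libraries on the log2(FPKM + 1) scale were Asns, which encodes asparagine synthetase (Pearson r = 0.9996), Inpp5a, an inositol phosphatase gene (0.9993), and Rhbdf2, which encodes a rhomboid-like regulator of ADAM17 (0.9991). Asns fell from 230 ± 6.47 to 126 ± 7.37 FPKM, Inpp5a from 14.7 ± 0.444 to 9.003 ± 0.434 FPKM and Rhbdf2 from 14.6 ± 0.483 to 6.39 ± 0.599 FPKM (SD, n = 3). The libraries fall into 2 groups, and 1151 coding genes had r above 0.95, so these values describe the group difference and carry no p.

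The RefSeq start used for the Dusp10 window lies 21079 bases downstream of the gene start in the deposited table, so this window is that of an internal start; which start the reads came from cannot be read from gene totals.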
